A study of Mus musculus with 28 samples.

Results

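The regions described here are the sites of open chromatin that separate reprogrammed fibroblasts carrying the GFP label at day 10 from quiescent satellite cells, the resting stem cells of skeletal muscle. A region was called GFP-only when both day 10 GFP libraries listed a peak in it and neither quiescent satellite cell library did, and quiescent-only in the reverse case. Of 253225 regions found across the series, 84552 were listed by at least 1 of these 4 libraries, 17046 of them were GFP-only and 6177 were quiescent-only, 23223 members in all. GFP-only regions thus made up 20.2% and quiescent-only regions 7.31% of the regions listed by any of the 4 libraries. The 4 libraries that chose the members are used below to describe them, with no test, and every test is made in the 24 other libraries.

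Chromatin accessibility was measured by ATAC-seq, in which a transposase inserts sequencing adapters into open DNA, in 14 groups of 2 libraries. The fibroblasts were mouse embryonic fibroblasts with 3 alleles, Pax7-nGFP, Col1a1-tetO-MyoD and Rosa-rtTA, so that doxycycline switches on MyoD from the Col1a1 locus and an active Pax7 gene makes the nucleus green. The day 10 GFP group (MEF14 Dox+FRG Day10 GFP) had been grown in the reprogramming medium, whose additions per the labels were doxycycline at 2 µg/ml, basic FGF at 10 ng/ml, forskolin at 5 µM, RepSox at 5 µM and CHIR99021 at 3 µM, the last 3 read here as the F, R and G of FRG. Quiescent satellite cells were primary cells of adult Pax7-nGFP mice aged 10 to 12 weeks. The reporter is thus shared by both sides of the comparison, while the MyoD transgene, the drugs, the culture, the embryonic origin and the days in dish belong to the GFP side only and cannot be told apart. The other MEF14 groups used here were day 0 fibroblasts, unsorted Dox+FRG cells of days 2, 4, 6 and 8 (called unsorted for want of a GFP label), Dox+FRG cells with the GFP label at day 8, cells with doxycycline but no FRG (Dox) at days 4 and 8, and cells with FRG but no doxycycline at day 8. Activated satellite cells made up a further group. How GFP cells were sorted and how satellite cells were activated is not in the labels. Nor do they name the culture or animal behind each library, and p-values therefore cover the spread between libraries alone, which may be technical.

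MyoD is a transcription factor of the muscle lineage that binds E-box sequences, can open closed chromatin and turns fibroblasts into muscle cells when forced on. Satellite cells express Pax7, sit beneath the basal lamina of the muscle fibre in a resting state, and on injury enter the cell cycle, switch on MyoD and make new muscle. Forskolin raises cyclic AMP, RepSox blocks the TGF-beta type I receptor, and CHIR99021 blocks GSK3 and so mimics Wnt signalling. The files give positions in the mm9 build without gene names. Genes and sequences of that build were not analysed here, so regions are described by place and by the cells that shared them, and the cell labels were not checked against marker genes.

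The day 10 GFP lists held 61575 and 64947 peaks and the quiescent lists 57859 and 37910. The most common peak width was 184 and 172 bp in the GFP lists and 180 and 172 bp in the quiescent lists. Read depth is unknown from these lists. The GFP replicates shared more regions with each other than with satellite cells, with a Jaccard index (regions in both lists over regions in either) of 0.785 between GFP replicates, 0.632 between quiescent replicates, and 0.417 to 0.497 for the 4 pairs across groups. A list shorter than its partner bears directly on the members. Of the 8914 regions listed by both GFP libraries and just 1 quiescent library, 8703 were listed by quiescent replicate 1 and 211 by the shorter replicate 2. Conversely, 1834 regions were in both quiescent lists and 1 GFP list, 698 of them in GFP replicate 1 and 1136 in replicate 2. These regions lie just outside the definition. A further 9117 regions were in quiescent replicate 1 alone, 566 in quiescent replicate 2 alone, 3895 in GFP replicate 1 alone and 6644 in GFP replicate 2 alone. All 4 libraries listed 27995 regions, 33.1% of those in any of them. Equal numbers of peaks drawn from the 28 lists gave 7399 GFP-only and 7405 quiescent-only regions, so the excess of GFP-only regions does not hold at equal list length. That draw also changes which regions are members: a full list of the other group held 47.9% of the quiescent-only and 17.6% of the GFP-only regions it gave. List length was therefore examined in 2 ways below, by drawing all lists and choosing the members anew, and by keeping the members and drawing the 24 other lists alone.

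Quiescent-only regions were found far less often in other cells than GFP-only regions were. The median quiescent-only region was listed by 3 of the 24 other libraries (quartiles 0 and 10), the median GFP-only region by 13 (quartiles 7 and 18), and the median region of all 4 lists by 24. No other library listed 1802 quiescent-only regions (29.2%) or 494 GFP-only regions (2.90%), against 9.86% of all regions listed in any of the 4 libraries. The GFP side has 22 fibroblast-derived libraries among the other 24 and the satellite cell side has 2, which bears on this contrast by construction. Among quiescent-only regions 2001 (32.4%, against 10.5% of all regions in any of the 4 lists) were in no fibroblast-derived list outside the comparison. Of these, 199 (3.22% of quiescent-only regions) were shared with at least 1 activated satellite cell library. Of all 84552 regions in any of the 4 lists, 8846 were in no such fibroblast-derived list and 8338 in none of the 24 other lists.

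**Figure D1:**
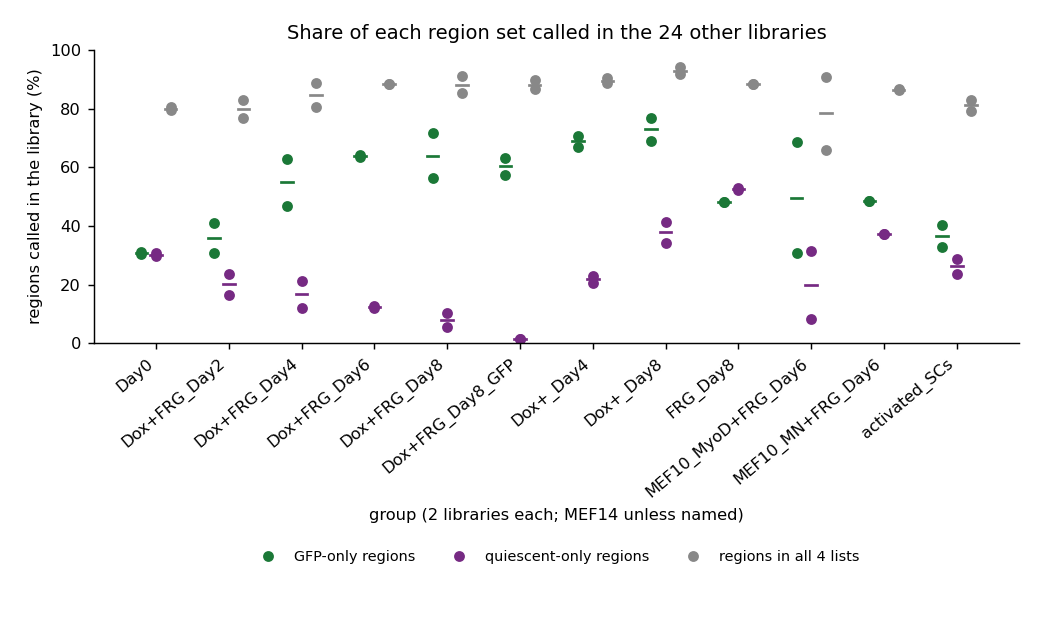
Share of GFP-only regions, quiescent-only regions and regions of all 4 defining lists (y axis, percent) that each of the 24 other libraries called, by group (x axis); points are libraries and short bars are the means of 2. Full lists are plotted: quiescent-only regions go from a mean of 30.1% at day 0 to 1.40% in day 8 GFP cells (16.7% to 1.17% with the 24 lists drawn to equal length and the members kept, 27.7% and 29.5% with members chosen anew) while regions of all 4 lists lie at 76.8% or more in the day 0 and Dox+FRG libraries of MEF14.

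Activated satellite cells listed a minority of the sites that set quiescent cells apart from day 10 GFP cells, in full lists about as many as fibroblasts did. The activated libraries listed 23.7% and 28.7% of quiescent-only regions, and 79.2% and 83.1% of the regions in all 4 lists. Day 0 fibroblasts listed 30.6% and 29.6% of quiescent-only regions and 80.4% and 79.6% of the regions in all 4. Values of the 2 groups lay close together, and the activated lists were shorter (49072 and 61400 peaks) than the day 0 lists (70756 and 67502). Both activated libraries listed 1298 quiescent-only regions (21.0%) and neither listed 4237 (68.6%), against 41.7% and 47.5% of all regions in any of the 4 defining lists. The largest class, 3316 regions or 53.7% (against 33.3%), was listed by no activated and no day 0 library. Next came 704 regions (11.4%, against 30.1%) in both activated and both day 0 libraries, 635 (10.3%, against 9.41%) in both day 0 libraries and no activated one, and 472 (7.64%, against 9.33%) in both activated libraries and no day 0 one. The remaining 1050 were in 1 library of a pair.

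During Dox+FRG treatment the mean share of quiescent-only regions was lower at each later day. Unsorted libraries listed 23.6% and 16.6% on day 2 and 21.2% and 12.1% on day 4. By day 6 the values were 12.0% and 12.7%, and by day 8 they were 10.3% and 5.37%. Both day 8 libraries lay below both day 2 and both day 4 libraries, whereas the values of days 2 and 4 overlapped. Regions of all 4 lists were called at 79.9% ± 4.33 at day 2 and 88.1% ± 4.11 at day 8 (SD, n = 2 each). These common regions were chosen for presence in the day 10 GFP lists, which partly sets their share as it does that of the members. Day 8 cells with the GFP label were at 1.51% and 1.30%, below every unsorted library. They differed from the 8 unsorted libraries (14.2% ± 5.96, SD) by -12.8 percentage points (two-sided exact permutation test, 45 splits, p = 0.0444). With Benjamini-Hochberg adjustment over the 7 tests made here this exact p became 0.100 and missed the threshold of 0.05. The unsorted libraries pool days 2 to 8, so the GFP label and the day are mixed in this difference. Unsorted day 8 cells alone had a mean of 7.84%, against 1.40% in day 8 GFP cells, which was not tested. Libraries of a group were permuted as separate units, and the members were chosen for absence from day 10 GFP lists, so a low share in GFP cells 2 days earlier is partly set by the choice. With the 24 lists drawn to equal length and the members kept, the mean shares were 14.5% on day 2, 9.98% on day 4, 7.20% on day 6, 4.78% on day 8 and 1.17% in day 8 GFP cells, a difference of -7.94 points for the GFP cells. With members chosen anew from equal lists the means were 31.7%, 27.5%, 25.2%, 25.9% and 29.5%, without the decline after day 6, and the difference turned to 1.98 points more in GFP cells.

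The regions were next split by presence at day 0, a split that fixes the starting shares at 100% and 0%, so that only the former class can go down from day 0. Quiescent-only regions of either class are absent from the day 10 GFP lists by choice, which partly sets low shares near that day. Of 1621 quiescent-only regions in both day 0 libraries (26.2% of quiescent-only regions, against 44.5% of all regions in any of the 4 lists), the unsorted libraries of day 2 listed 57.9% ± 10.4 and those of day 4 43.4% ± 15.4 (SD, n = 2 each). On day 6 this was 27.3% ± 2.40 and on day 8 14.9% ± 7.07. Day 8 GFP cells listed 1.97% and 1.67%. By the first day on which neither unsorted library listed the region, 503 regions were first missing on day 2 and a further 310 on day 4. Another 343 were first missing on day 6 and 231 on day 8. A further 213 were in at least 1 unsorted library of each day but in no day 8 GFP library, and 21 were still in a day 8 GFP library. The days on which regions were first missing were thus spread over the time course. These counts do not follow whether a region was listed again later, and a missing region may be undetected.

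Quiescent-only sites absent from the fibroblasts were rarely listed in Dox+FRG cells on any day. They were chosen for absence from the day 0 and day 10 GFP lists, which partly sets low shares between. The 4080 regions were 66.1% of quiescent-only regions, against 47.1% of all regions in any of the 4 lists. Of these 4080, unsorted cells listed 4.17% ± 2.22 on day 2 and 5.43% ± 2.17 on day 4 (SD over 2 libraries). Day 6 cells listed 6.02% ± 0.260 and day 8 cells 4.74% ± 1.89. GFP cells of day 8 listed 1.27% and 1.15%. Both unsorted libraries of at least 1 day listed 261 of the 4080 (6.40%), a share that was not counted over all regions. The 472 that activated satellite cells shared were listed more often, at 24.9% ± 6.14 on day 4 and 20.2% ± 6.44 on day 8 in unsorted cells, but at 2.75% and 2.33% in day 8 GFP cells. The 3316 regions in neither day 0 nor activated libraries were at 2.34% ± 0.960 in unsorted day 8 cells (SD, n = 2).

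**Figure D2:**
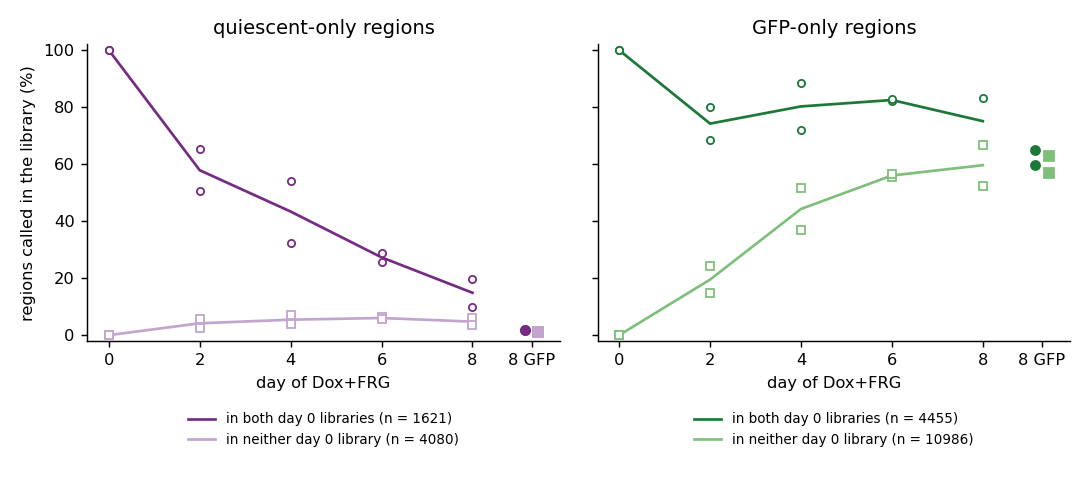
Share of regions called (y axis, percent) by day of Dox+FRG (x axis) for quiescent-only (left) and GFP-only regions (right), split by presence in the day 0 libraries; open points are unsorted libraries, lines their means, and filled points the day 8 GFP libraries (on the right, the lower open circle of day 8 lies under a square). Fibroblast sites shared with quiescent cells go down from a mean of 57.9% at day 2 to 14.9% at day 8, while GFP-only sites absent at day 0 go up from 19.5% to 59.6%. The choice of members by the day 10 GFP lists partly sets both directions.

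The small molecules without MyoD gave another picture. FRG day 8 libraries listed 53.0% and 52.4% of quiescent-only regions, more than any other full list outside the comparison. This order did not hold at equal list length: with the members kept and the 24 lists drawn to equal length the mean was 15.3%, below the 16.7% of day 0 and 17.5% of activated cells, and with members chosen anew it was 19.1%, the lowest of the 12 groups. The full FRG lists held 92.9% ± 0.0436 of those that day 0 fibroblasts had (SD, n = 2). They also listed 33.3% and 32.5% of the 4080 regions in neither day 0 library, and 1215 of these (29.8%) were in both FRG lists. The matching share of all regions in neither day 0 library was not counted, so these values are no result about the members. Of all quiescent-only regions 3083 (49.9%) were in both FRG lists, against 62.4% of all regions in any of the 4 defining lists. In 840 quiescent-only regions (13.6%, against 3.39% of all regions in any of the 4 lists) at least 1 FRG library and no MyoD-induced library outside the comparison, MEF10 MyoD+FRG included, had a peak, a pattern seen in 138 GFP-only regions (0.810%). The MEF10 MN+FRG libraries were not counted as MyoD-induced and may have peaks there. The choice of members by MyoD-induced day 10 cells partly sets both counts. The FRG lists were the longest, with 134997 and 133267 peaks of mostly 61 and 63 bp. In full lists at a like share of the regions in all 4 lists (88.5% ± 0.0455 in FRG and 88.4% ± 0.0834 in unsorted Dox+FRG day 6 cells), FRG listed 52.7% ± 0.424 and Dox+FRG 12.3% ± 0.492 of quiescent-only regions (SD, n = 2). In lists of equal length these means were 15.3% and 7.20% with the members kept, and 19.1% and 25.2%, the reverse order, with members chosen anew.

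Doxycycline without the small molecules gave shares between these at day 8 in full lists. Dox libraries listed 20.6% and 22.9% of quiescent-only regions at day 4 and 34.3% and 41.5% at day 8, where unsorted Dox+FRG libraries had 21.2% and 12.1%, then 10.3% and 5.37%. Over both days the shares were 12.3% ± 6.62 with FRG and 29.8% ± 9.83 without (SD, n = 4 each), a difference of -17.6 points (two-sided exact permutation p = 0.0571 from 70 splits, adjusted p = 0.100). For GFP-only regions the shares were 59.4% ± 10.4 and 70.9% ± 4.26, a difference of -11.5 points (exact permutation p = 0.114, adjusted p = 0.133). Neither difference passed. The Dox lists held 89871 to 130916 peaks against 50608 to 70877, and treatment and list length cannot be told apart here. With members chosen anew from equal lists both differences turned, to 6.50 and 11.8 points more in Dox+FRG. With the members kept they were -3.25 points for quiescent-only regions and 11.7 points, again turned, for GFP-only regions.

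**Figure D3:**
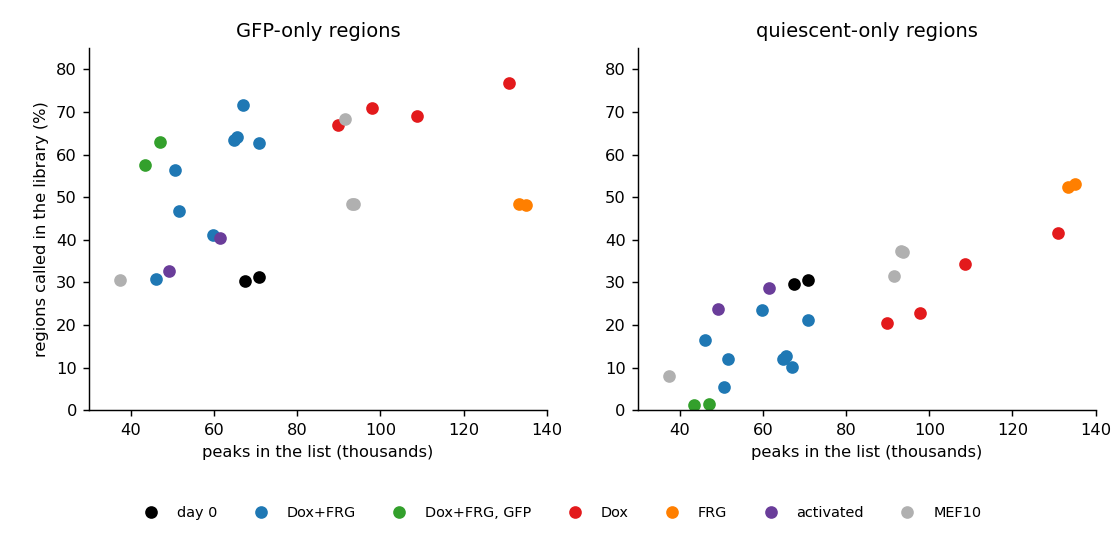
Share of GFP-only (left) and quiescent-only regions (right) called in each of the 24 other libraries (y axis, percent) against the number of peaks in its list (x axis, in units of 1000 peaks), coloured by group. At lists of 64823 to 70877 peaks, day 0 fibroblasts call fewer GFP-only and more quiescent-only regions than Dox+FRG cells, and the long FRG lists call 48.3% of GFP-only regions.

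Most GFP-only regions, like most quiescent-only regions, were sites that day 0 fibroblasts lacked. From day 6 on, MEF14 libraries with MyoD switched on listed more GFP-only regions than day 0 or FRG libraries, also on average in lists of equal length. The day 10 cells that chose the members were themselves MyoD-induced, which partly sets this direction. Neither day 0 library listed 10986 GFP-only regions (64.4%, against 47.1% of all regions in any of the 4 lists) and both listed 4455 (26.1%, against 44.5% of all regions in any of the 4 lists). Quiescent-only regions had nearly the same shares, with 66.1% in neither and 26.2% in both day 0 libraries. Both Dox day 8 libraries listed 11462 (67.2%, against 65.9% of all regions in any of the 4 lists), both unsorted Dox+FRG day 8 libraries 9049 (53.1%, against 48.3%), both day 8 GFP libraries 8535 (50.1%, against 44.8%), and both FRG libraries 7715 (45.3%, against 62.4%). For MyoD-induced cells these shares were thus near the background, which is no result about the members, and for day 0 and FRG cells they were below it. By library, GFP-only regions were called at 31.2% and 30.4% in day 0, 69.1% and 76.8% in Dox day 8, 71.6% and 56.4% in unsorted Dox+FRG day 8, 63.0% and 57.5% in day 8 GFP, and 48.2% and 48.3% in FRG cells. Day 8 GFP cells and the 8 unsorted libraries, at 60.3% ± 3.88 and 54.6% ± 13.8 (SD), differed by 5.61 points (two-sided exact permutation p = 0.622 from 45 splits, adjusted p = 0.622), less than the spread between unsorted libraries. GFP cells lay within the unsorted range of 30.8% to 71.6%. The difference was larger in equal lists: GFP cells stood above by 15.5 points with the members kept and by 15.0 points with members chosen anew (exact permutation p = 0.0222 in each, the smallest possible, which reached but did not fall below the threshold of 0.05 after adjustment). In both cases the members were chosen for presence in day 10 GFP lists. A higher share in GFP cells 2 days earlier is therefore partly set by the choice.

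Activated satellite cells had a part of the GFP-only sites. They listed 32.8% and 40.4% of GFP-only regions in full lists, which were shorter than those of day 0 fibroblasts, at 31.2% and 30.4%. In equal lists the mean was 25.1%, against 16.9% at day 0, with the members kept. With members chosen anew it was 26.8%, against 19.2%. Both activated libraries listed 5098 (29.9%, against 41.7% of all regions in any of the 4 lists) and neither listed 9663 (56.7%, against 47.5%). Because quiescent cells lack these regions by definition, the 5098 are also sites listed in activated and not in quiescent cells, and both statements rest on the same quiescent lists. Of the GFP-only regions 2167 (12.7%, against 30.1%) were in both day 0 and both activated libraries, 1569 (9.20%, against 9.41%) in both day 0 and no activated library, 2533 (14.9%, against 9.33%) in both activated and no day 0 library, and 7187 (42.2%, against 33.3%) in none of these. The remaining 3590 were in 1 library of a pair.

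The 7187 GFP-only regions found in neither fibroblasts nor activated satellite cells had a higher mean share at each later day of Dox+FRG. They were chosen for absence at day 0 and presence in day 10 GFP cells, so a rise between is partly set by the choice. Unsorted libraries held 12.9% ± 5.32 of them on day 2 and 27.9% ± 10.9 on day 4 (SD, n = 2). On day 6 the share was 42.2% ± 0.807 and on day 8 it was 47.8% ± 11.4, with 59.8% and 54.3% in the day 8 GFP libraries. The unsorted day 8 libraries, at 55.8% and 39.7%, lay on either side of the day 6 libraries, at 41.6% and 42.8%. Dox cells without FRG listed 45.4% ± 4.06 at day 4 and 49.4% ± 7.15 at day 8, and FRG cells 26.7% ± 0.216. Over all 10986 GFP-only regions in neither day 0 library, the first day on which both unsorted libraries listed the region was day 2 for 1351, day 4 for 2722, day 6 for 1645 and day 8 for 784. A further 1519 (13.8%) were in both day 8 GFP libraries and in no unsorted pair, and 2965 (27.0%) were in both libraries of none of these groups. These counts by first day were not made over all regions. Outside the day 10 libraries, 612 GFP-only regions (3.59%, against 1.7% of all regions in any of the 4 lists) were listed in day 8 GFP cells and in none of the 22 other libraries. For 1170 regions (6.86%, against 3.1%) all such libraries were Dox+FRG libraries of MEF14, GFP or unsorted.

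A ratio within each library sets both shares of 1 list against each other, although list length can still enter it. The day 10 GFP lists chose the regions of both shares, which partly sets a high ratio in Dox+FRG and day 8 GFP cells. In full lists the log2 ratio of the GFP-only share to the quiescent-only share was 0.03 and 0.04 in day 0 fibroblasts and -0.14 and -0.12 in FRG cells. Both kinds of region were about equally frequent in those lists. It was 0.47 and 0.49 in activated satellite cells. In unsorted Dox+FRG cells it was 0.85 ± 0.07 on day 2 and 1.76 ± 0.27 on day 4 (SD over 2 libraries). It was 2.37 ± 0.05 on day 6 and 3.09 ± 0.42 on day 8, both libraries of each day lying above those of the day sampled before. Day 8 GFP cells reached 5.39 and 5.47. In equal lists with the members kept the means were 0.82, 1.77, 2.36, 3.14 and 5.42 in this order, and with members chosen anew -0.21, 0.36, 0.59, 0.68 and 0.77. For day 0, FRG and activated cells the means were 0.01, -0.16 and 0.52 with the members kept. With members chosen anew they were -0.53, -0.36 and -0.32. Dox cells were lower on the later day, with 1.67 ± 0.05 at day 4 and 0.95 ± 0.09 at day 8.

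Of the 7 tests, 1 passed after adjustment. The log2 ratio was 1.78 ± 0.83 in the 12 MyoD-induced MEF14 libraries without the GFP label and -0.05 ± 0.09 in the 4 libraries without doxycycline (SD), a difference of 1.83 (two-sided exact permutation p = 0.00110 from 1820 splits, adjusted p = 0.00769). All 12 induced libraries lay above all 4 others. The day 10 GFP cells that chose the members were themselves induced, so the direction of this difference is partly set by the choice. The difference was 1.85 in equal lists with the members kept and 0.81 with members chosen anew. Within each kind of list the direction was the same. Among lists whose most common width was 153 to 205 bp, 8 induced libraries had 2.02 ± 0.90 and 2 day 0 libraries 0.04 ± 0.01 (exact permutation p = 0.0222). Among lists of 61 to 88 bp, 4 Dox libraries had 1.31 ± 0.42 and 2 FRG libraries -0.13 ± 0.01 (exact permutation p = 0.0667, the smallest that 15 splits allow). Day 8 GFP cells exceeded the 8 unsorted Dox+FRG libraries by 3.41, every GFP library above every unsorted one (exact permutation p = 0.0222, adjusted p = 0.0778), and this missed the threshold. In equal lists it was 3.39 with the members kept and 0.42 with members chosen anew, and with wide peaks alone it was 2.10. The choice of members by presence in or absence from the day 10 GFP lists partly sets this direction too. The unsorted libraries pool days 2 to 8, and unsorted day 8 cells alone had a mean of 3.09 in full lists, against 5.43 in day 8 GFP cells. Dox+FRG exceeded Dox cells of days 4 and 8 by 1.12, with 2.43 ± 0.82 and 1.31 ± 0.42 (SD, n = 4 each, exact permutation p = 0.0857, adjusted p = 0.120), and the libraries overlapped. In equal lists this was 1.17 with the members kept and 0.13 with members chosen anew. The day 10 GFP cells that chose the members were Dox+FRG cells, so this direction is partly set by the choice as well.

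Members of both kinds were mostly narrow peaks. Most peaks of a list share 1 width, and those above it were 4.88% and 5.01% of the GFP-only peaks in the 2 GFP lists, against 12.8% and 11.3% of the peaks of the same lists in regions common to all 4. In the quiescent lists they were 8.90% and 4.21% of quiescent-only peaks and 15.7% and 9.80% of peaks in common regions. These are values of the defining lists, given with no test. With wide peaks alone there were 1413 GFP-only and 998 quiescent-only regions.

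Distances to the other group's peaks are given as a description of the 4 defining lists. The nearest day 10 GFP peak was a median of 7076 bp away (quartiles 3170 and 17014), 60.1% of quiescent-only regions had one within 10 kb, and 176 regions (2.85%) had none within 100 kb. From GFP-only regions the nearest quiescent peak was a median of 12928 bp away (quartiles 5342 and 36298), 42.7% had one within 10 kb, and 1849 (10.8%) had none within 100 kb. Regions in a single quiescent list and no GFP list had a median of 7599 bp, and those in a single GFP list and no quiescent list 11628 bp, so the members stood close to these less replicated regions. The GFP lists were the longer ones, and the part of list length in these distances was not tested.

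**Figure D4:**
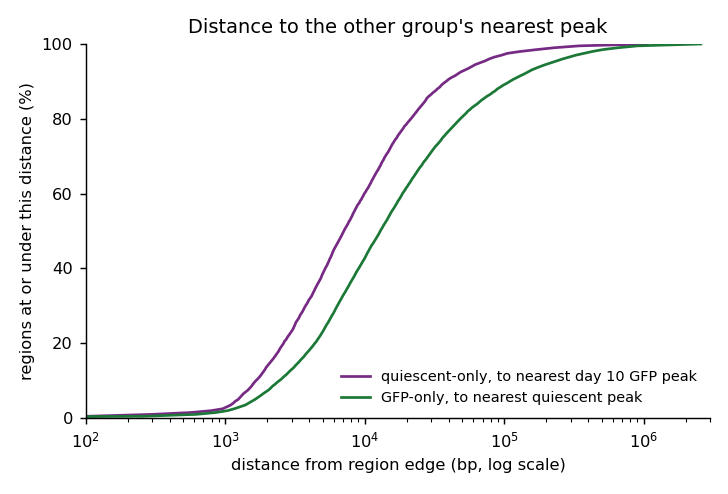
Cumulative share of regions (y axis, percent) against the distance from the region's edge to the nearest peak of either library of the other group (x axis, bp, log scale). The quiescent-only curve has its median at 7076 bp and the GFP-only curve at 12928 bp.

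Members of 1 kind tended to follow each other along the chromosome. After a GFP-only region the next region listed by any of the 4 libraries was GFP-only in 28.6% of cases, against 20.2% of all such regions, and after a quiescent-only region it was quiescent-only in 13.8%, against 7.31%. By chromosome, the GFP-only share ran from 16.4% on chromosome 19 to 1167 of 4864 regions on chromosome 3, and the quiescent-only share from 5.03% on chromosome 11 to 9.59% on chromosome 15. On the X chromosome these shares were 19.4% and 6.40%. In windows of 100000 bp, 1638 windows held at least 3 GFP-only regions and 390 at least 3 quiescent-only regions, and 29 held at least 3 of both. Quiescent libraries had no region at all in 259 of the former, and GFP libraries none in 28 of the latter.

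The windows with most GFP-only regions held 8 each. On chromosome 6 from 41000001 to 41100000 (mm9), the GFP libraries listed 8 and 9 regions and the quiescent libraries 0 and 0. No library outside the comparison listed more than 7. Unsorted Dox+FRG libraries listed 0 to 3 regions there, day 8 GFP cells 3 and 3, day 0 fibroblasts 3 and 5, and activated satellite cells 1 and 4. One of its GFP-only regions, from 41011179 to 41011407, was in no library outside the day 10 GFP cells. Another, from 41003032 to 41003283, was found elsewhere only in both day 8 GFP libraries.

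On the X chromosome from 156100001 to 156200000 the GFP libraries listed 10 and 9 regions and the quiescent libraries 1 and 1. Other libraries listed up to 14 regions in it. Activated satellite cells listed 6 and 7 regions, day 0 fibroblasts 4 and 4, and unsorted day 8 cells 8 and 6. Its GFP-only region from 156146099 to 156146702 was listed by 22 of the 24 other libraries. On chromosome 4 from 136300001 to 136400000 the GFP libraries listed 11 and 10 regions and the quiescent libraries 2 and 0. There the count in unsorted Dox+FRG cells went from 4 and 2 at day 2 to 11 and 9 at day 8, with 13 and 13 in Dox day 8 cells.

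Windows with 8 GFP-only regions also lay on chromosome 13 from 60300001 to 60400000, chromosome 4 from 147300001 to 147400000, and chromosome 17 from 27300001 to 27400000. Here the quiescent libraries listed 4 and 3, 3 and 2, and 2 and 1 regions, and the GFP libraries 13 and 11, 11 and 12, and 9 and 11. Windows with 7 lay on chromosome 14 from 60500001 to 60600000, chromosome 6 from 55000001 to 55100000, and chromosome 2 from 78800001 to 78900000 and from 79200001 to 79300000. In the chromosome 6 window at 55000001 Dox libraries listed 14 to 16 regions, GFP libraries 10 and 10, FRG libraries 6 and 6 and day 0 fibroblasts 2 and 4. In the chromosome 2 window at 78800001, day 8 GFP cells listed 7 and 7 regions, close to the 8 and 8 of day 10, where day 2 cells listed 1 and 0. None of these 10 windows held a quiescent-only region.

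Among windows rich in quiescent-only regions, that on chromosome 12 from 71900001 to 72000000 led with 9. Quiescent libraries listed 15 and 11 regions there and GFP libraries 3 and 3. Activated satellite cells listed 8 and 7, day 0 fibroblasts 8 and 7, unsorted day 8 cells 5 and 4, and FRG cells 16 and 17. Its members differed among themselves. The region from 71932135 to 71932321 was in 17 of the 24 other libraries, that from 71984306 to 71984488 only in both activated libraries, and that from 71939150 to 71939390 in none.

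The window on chromosome 10 from 19700001 to 19800000 had the most regions found in resting cells alone among the first 3 windows. Quiescent libraries listed 10 and 8 regions, GFP libraries 1 and 3, and activated satellite cells and day 8 GFP cells 0 in every library. Of its 7 quiescent-only regions, 4 were in no library outside the quiescent cells, among them that from 19725379 to 19726495. The other three, from 19711121 to 19711884, from 19765901 to 19766124 and from 19796819 to 19797185, were in 14, 9 and 10 other libraries. On chromosome 15 from 62100001 to 62200000, quiescent libraries listed 10 and 10 regions, GFP libraries 3 and 3, activated satellite cells 5 and 6 and day 0 fibroblasts 6 and 6. There 2 of the 7 quiescent-only regions were in no other library, from 62175302 to 62175505 and from 62182746 to 62182986.

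Windows with 7 quiescent-only regions also lay on chromosome 3 from 27300001 to 27400000 and chromosome 12 from 76400001 to 76500000. In the window at 76400001, quiescent libraries listed 11 and 10 regions, FRG libraries 14 and 15, and activated satellite cells 2 and 2. Windows with 6 lay on chromosome 6 from 22700001 to 22800000, chromosome 2 from 137300001 to 137400000, chromosome 8 from 120900001 to 121000000, chromosome 1 from 12700001 to 12800000 and chromosome 13 from 44400001 to 44500000. In the chromosome 6 window at 22700001 all 7 regions of the series were listed by both quiescent libraries, 4 and 5 by activated satellite cells, 1 and 0 by day 10 GFP cells and 0 and 0 by day 8 GFP cells. The chromosome 13 window contrasted with it, with 8 and 7 regions in quiescent cells, 17 and 16 in FRG cells, and 1 and 1 in activated satellite cells.

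The longest runs, chosen after their values were seen, were 12 GFP-only regions in succession on chromosome 18 from 42788867 to 43059527 and 7 quiescent-only regions on chromosome 4 from 15441233 to 15585081. In the chromosome 18 run 3 regions were listed by all 24 other libraries, so that the quiescent libraries alone lacked them. In the chromosome 4 run 3 regions were in no other library, and none was in a day 0 or day 8 GFP library. The region from 15523227 to 15523894 was in 13 other libraries, both activated ones among them, and that from 15560211 to 15560433 in 6, of which 2 were activated and 2 were FRG libraries.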

How the data were processed

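Each deposited list holds peak positions of 1 library as chromosome, start and end, with neither counts nor another score (other data). BWA, HOMER and mm9 are named in the submitters' processing notes, per the labels. Tool versions, the peak threshold and read filters were not found in these sources. Positions are printed counted from 1, taking the files' starts to count from 0. Peaks of the 28 lists sharing at least 1 bp were merged into regions (Python 3.11.15, pandas 2.3.3, numpy 2.4.6), and each region was scored as called or not in each library. A region's position in the text spans the merged peaks of all lists for runs, and the peaks of the 2 defining libraries in windows. Named windows are the 10 of 100000 bp with most regions of each kind, regions being placed by their middle. Shares were compared by exact permutation of libraries, taking the proportion of splits with a difference at least as large in either direction, with Benjamini-Hochberg adjustment over 7 tests and a threshold of 0.05. With 2 libraries against 2, p cannot go below 0.333, so the defining comparison was not tested. Planned gene counts, marker genes and sequences were not used here, since the gene table at hand is for another build. The counting was tested on simulated lists. Members and measures were chosen with earlier results of these data known. Alternatives were a 50% overlap, equal list lengths (37301 peaks drawn, with the members chosen anew or kept), wide peaks alone, other mergings, autosomes alone, each library left out, and the replicate number as a block.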

Additional observations from a re-analysis of the deposited data

Results flagged for a closer look

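The share of quiescent-only regions moved in opposite directions in Dox+FRG and Dox cells between days 4 and 8, a difference that was not tested. It fell by 8.83 percentage points in unsorted Dox+FRG cells and was higher by 16.2 at day 8 in Dox cells, every library of day 8 lying on the same side of both libraries of day 4. Dox lists grew from 89871 and 97854 peaks to 108663 and 130916, and Dox+FRG lists went from 70877 and 51536 to 67026 and 50608. In lists drawn to equal length the changes were -5.20 points for Dox+FRG and 3.03 points for Dox cells with the members kept. With members chosen anew from equal lists both were downward, at -1.59 and -1.24 points.

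From day 0 to day 8 the share fell by 22.3 points in unsorted Dox+FRG cells. It was higher by 7.81 points in Dox day 8 cells and by 22.6 points in FRG day 8 cells than at day 0, again with no overlap between days, and these differences were not tested either. The 3 changes share the day 0 libraries. Members were chosen for absence from the day 10 GFP lists, which partly sets the fall in Dox+FRG cells. The opposite directions did not hold in lists of equal length. There all 3 were downward, at -11.9 points for Dox+FRG, -4.59 for Dox and -1.38 for FRG cells with the members kept, and -1.79, -8.11 and -8.58 with members chosen anew.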

How the results depend on the processing

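Equal list lengths by a random draw gave 7399 GFP-only regions, and 7732 when only the 4 lists of the comparison were drawn to 37910 peaks, an alternative chosen after seeing the data. Wide peaks alone gave 1413 GFP-only and 998 quiescent-only regions, since fewer peaks enter. A 50% overlap, other mergings and autosomes alone kept both counts within 1.5 times. Leaving out 1 of the 4 libraries gave 17257 to 25749 GFP-only regions, the highest without quiescent replicate 1, and 6743 to 15294 quiescent-only regions, the highest without quiescent replicate 2. With equal list lengths and members chosen anew 3 differences reversed, to 1.98 points for quiescent-only regions in day 8 GFP against unsorted cells, and to 6.50 points for quiescent-only and 11.8 points for GFP-only regions in Dox+FRG against Dox cells. A random draw removes a larger part of a long list, and it placed regions of the other group's full lists among the members (47.9% of quiescent-only regions). Keeping the members and drawing the 24 other lists alone, an alternative chosen after seeing the data, left 1 reversal, GFP-only regions in Dox+FRG against Dox cells at 11.7 points. The log2 ratio differences for day 8 GFP cells, Dox+FRG against Dox and MyoD induction were then 3.39, 1.17 and 1.85, against 0.42, 0.13 and 0.81 with members chosen anew. With wide peaks alone they were 2.10, 1.41 and 1.47. Leaving out libraries gave ranges of -14.1 to -11.2 points for quiescent-only regions in day 8 GFP against unsorted cells and -20.7 to -13.7 points in Dox+FRG against Dox cells. Over libraries left out, these log2 ratio differences ranged from 2.40 to 3.61 for day 8 GFP cells, 0.80 to 1.41 for Dox+FRG against Dox and 1.57 to 1.92 for MyoD induction. Without quiescent replicate 2, the first 4 of these passed the threshold (exact permutation tests, adjusted p = 0.0400 each, where the adjusted p ran from 0.0400 to 0.267 over libraries left out). Within lists of 61 to 88 bp the MyoD difference was 1.43 and did not pass.

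Replicate numbers carry no stated pairing, and deviations of same-numbered day 10 GFP and quiescent libraries correlated at 0.0349 over 84552 regions. With the replicate number as a block the counts stayed at 17046 and 6177 by construction, the MyoD difference stayed at 1.83 (exact permutation adjusted p = 0.0179), and no call changed. Read depth is unknown, so a region missing from a list may be undetected and not closed.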

Other observations

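MEF10 libraries, from fibroblasts outside the comparisons above, were at day 6. MN+FRG libraries (MN is not defined by the labels) listed 48.5% and 48.5% of GFP-only and 37.3% and 37.2% of quiescent-only regions, from lists of 93086 and 93730 peaks. The MyoD+FRG libraries differed widely from each other, with 30.7% and 68.4% of GFP-only and 8.09% and 31.5% of quiescent-only regions from lists of 37301 and 91401 peaks whose most common widths were 155 and 500 bp. Their log2 ratios of GFP-only to quiescent-only shares were 1.92 and 1.12, and those of MN+FRG were 0.38 and 0.38.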
